A study of Mus musculus with 2 samples.

Results

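The nuclear oxidative phosphorylation (OXPHOS) subunits are the gene products that nuclear DNA contributes to the respiratory chain and to ATP synthase. They were taken by symbol: every feature starting with Ndufa, Ndufb, Ndufc, Ndufs, Ndufv, Uqcr, Cox4, Cox5, Cox6, Cox7, Cox8 or Atp5, without the Ndufaf assembly factors and without pseudogenes, and no measured value entered the choice. This gave 81 of 31053 features, of which 38 belong by name to complex I, 8 to complex III, 18 to complex IV and 17 to complex V. The symbol Atp5o stands for 2 features, and 1 of them (ENSMUSG00000116933) had no UMI in any class listed here. A few members are subunits by name more than by function: Ndufa4 is now counted with complex IV by most biochemists, Cox7a2l is a factor of respiratory supercomplexes, and Atp5s is a coupling factor of ATP synthase.

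In the mitochondrial inner membrane, complex I (NADH dehydrogenase) and complex III (ubiquinol-cytochrome c reductase) pass electrons to complex IV (cytochrome c oxidase), which reduces oxygen, and complex V (ATP synthase) uses the proton gradient they build to make ATP. Each of these complexes is assembled from nuclear-encoded subunits and from subunits encoded by mitochondrial DNA, whereas complex II is wholly nuclear. Photoreceptors pack mitochondria into their inner segments and use much ATP for ion pumping, and they also run glycolysis at a high rate.

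The data were 2 droplet-based single-cell RNA libraries (10x Genomics, unique molecular identifier or UMI counts) of mouse retina, taken on day 7 after an intravenous injection. The PBS library came from mice given phosphate-buffered saline, the vehicle, and the NaIO3 library from mice given 20 mg/kg sodium iodate, an oxidant that injures the retinal pigment epithelium and then the photoreceptors; in each group retinas of 6 mice were pooled. With 1 library per group no difference has a replicate check, no p-value is given, and every interval below is an exact 95% interval that covers counting error only. The labels call both samples CD11b+ microglia, but they describe magnetic bead selection for the NaIO3 group only. Rods outnumbered microglia in both libraries, so the classes below come from marker genes and not from the labels. If only the NaIO3 cells went through bead selection, treatment and cell handling cannot be told apart in any NaIO3 to PBS ratio below.

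The deposited files held 26605477 UMIs in 6242 PBS barcodes and 75981079 UMIs in 9746 NaIO3 barcodes, and 24 barcodes occurred in both. After filtering, 5573 PBS and 9441 NaIO3 cells stayed. Marker gating gave 5111 and 5258 rods, 246 and 262 cones, 45 and 558 bipolar cells, 69 and 528 Müller glia, and 19 and 1607 microglia (PBS first); 1.09% and 11.4% of cells stayed ungated. All 10 markers of each of these 5 classes were present in their class in both libraries. The same markers set the gate, so this is no separate check of the classes. Rod marker RNA was found in every class. The 10 rod markers summed to 72481 counts per 1000000 UMIs (CPM) in PBS rods and 41307 in NaIO3 rods. They summed to 58122 and 24210 in cones, 6806 and 9947 in bipolar cells, 35471 and 23005 in Müller glia, and 33806 and 2379 in microglia. For cones, Müller glia and microglia the sums, the complexes and several named members are therefore also given without some cells. Those cells, called rich in rod RNA below, held more rod marker UMIs than markers of their own class. Cones are photoreceptors too, and how much of their rod marker RNA was their own was not tested.

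Among classes of at least 20 cells, nuclear OXPHOS transcripts made up more of the summed UMIs of rods, cones and bipolar cells than of glia and vessel cells. This did not hold at each depth. In the PBS library the 81 members summed to 34229.8 CPM in bipolar cells, 30184 CPM in cones, 26936 CPM in rods and 20962 CPM in Müller glia, and no neighbours in this order had overlapping intervals. In the NaIO3 library the order was cones (28178 CPM), rods (27347 CPM, interval 27267 to 27428), bipolar cells (27186 CPM, interval 27022 to 27351), Müller glia (22809 CPM), microglia (22292 CPM) and 105 endothelial cells (14257 CPM), and only rods and bipolar cells were within counting error of each other. PBS microglia, with 19 cells, were left out of the order; they gave 21013 CPM (19978 to 22088). In single rods the share of UMIs from members had a median of 2.22% (quartiles 1.44% and 3.23%) in PBS and 2.67% (2.0% and 3.40%) in NaIO3, and the median rod held UMIs of 33 and 35 members.

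**Figure D1:**
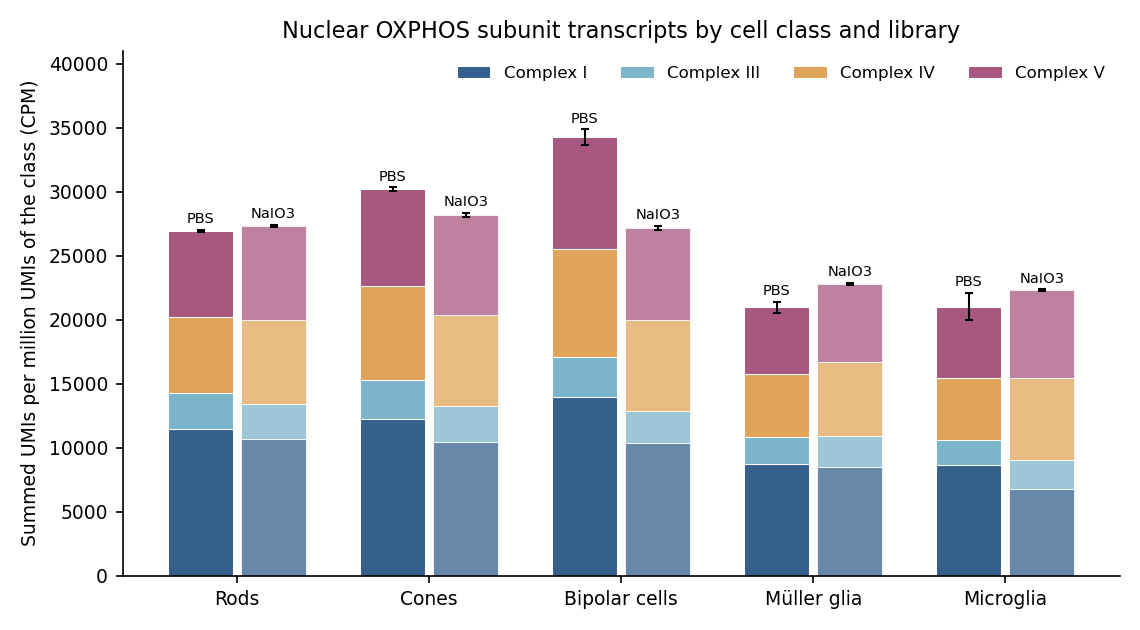
Summed UMIs of the 81 members as CPM of each class (y axis) in 5 cell classes, stacked by complex, with the PBS bar left and the lighter NaIO3 bar right in each pair. Black bars are exact 95% Poisson intervals of the sum; rods stand at 26936 and 27347 CPM (a ratio that TMM scaling turns to 0.799), and bipolar cells show the largest gap between libraries, 34229.8 against 27186 CPM.

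In rods, the summed level of nuclear OXPHOS transcripts in CPM was nearly the same in both libraries, though not at each depth, while single subunits ranged from 0.65 to 1.89 times their PBS level. The sum was 1.02 times the PBS level (1.01 to 1.02), and with TMM scaling, which sets the bulk of genes level, it was 0.799 times. Most rod genes were higher in NaIO3 on the CPM scale: over 7142 genes the median log2 ratio was 0.28, and TMM moves every rod ratio by -0.34 on the log2 scale. The median member had a log2 ratio of -0.01. Rods with 500 to 1500 UMIs gave 17425 CPM in PBS and 30637.5 CPM in NaIO3, those with 3000 to 6000 UMIs 29718 and 29038 CPM, and those above 12000 UMIs 30796.5 and 26052 CPM, so shallow and deep rods differed in opposite directions. Of the 71 members with at least 20 CPM in a library and 20 UMIs in all, 5 were at least 1.5 times higher and 3 at least 1.5 times lower, whereas 28.8% and 8.47% of all genes were. The members higher were 7.04% of those tested and the members lower were 4.23%. Counting intervals lay above 1 for 31 members and below 1 for 28, but no such count over all genes is given to set beside them.

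In rods, with Ndufa4 counted in complex I by name, complexes I and III were lower in CPM and complexes IV and V higher. All 4 were lower with TMM scaling. With Ndufa4 counted in complex IV, complex IV was no longer higher (0.995, 0.988 to 1.003), and complex I was at 0.988 (0.981 to 0.995). Complex I summed to 11487 CPM in PBS and 10682 CPM in NaIO3, a ratio of 0.930 (0.924 to 0.936), and complex III to 2808 and 2738 CPM (0.975, 0.963 to 0.988). Complex IV went from 5904 to 6561 CPM (1.11, 1.10 to 1.12) and complex V from 6737 to 7366 CPM (1.09, 1.08 to 1.10), and with TMM scaling these 2 ratios turn to 0.875 and 0.861, and those of complexes I and III are 0.732 and 0.768. The 7 nuclear core subunits of complex I, which carry its redox centres, had a ratio of 0.898 (0.881 to 0.915), and the 31 accessory members one of 0.935 (0.928 to 0.941). The 5 members of the F1 head of ATP synthase, where ATP is made, had a ratio of 1.09 (1.07 to 1.10), or 0.856 with TMM scaling.

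**Figure D2:**
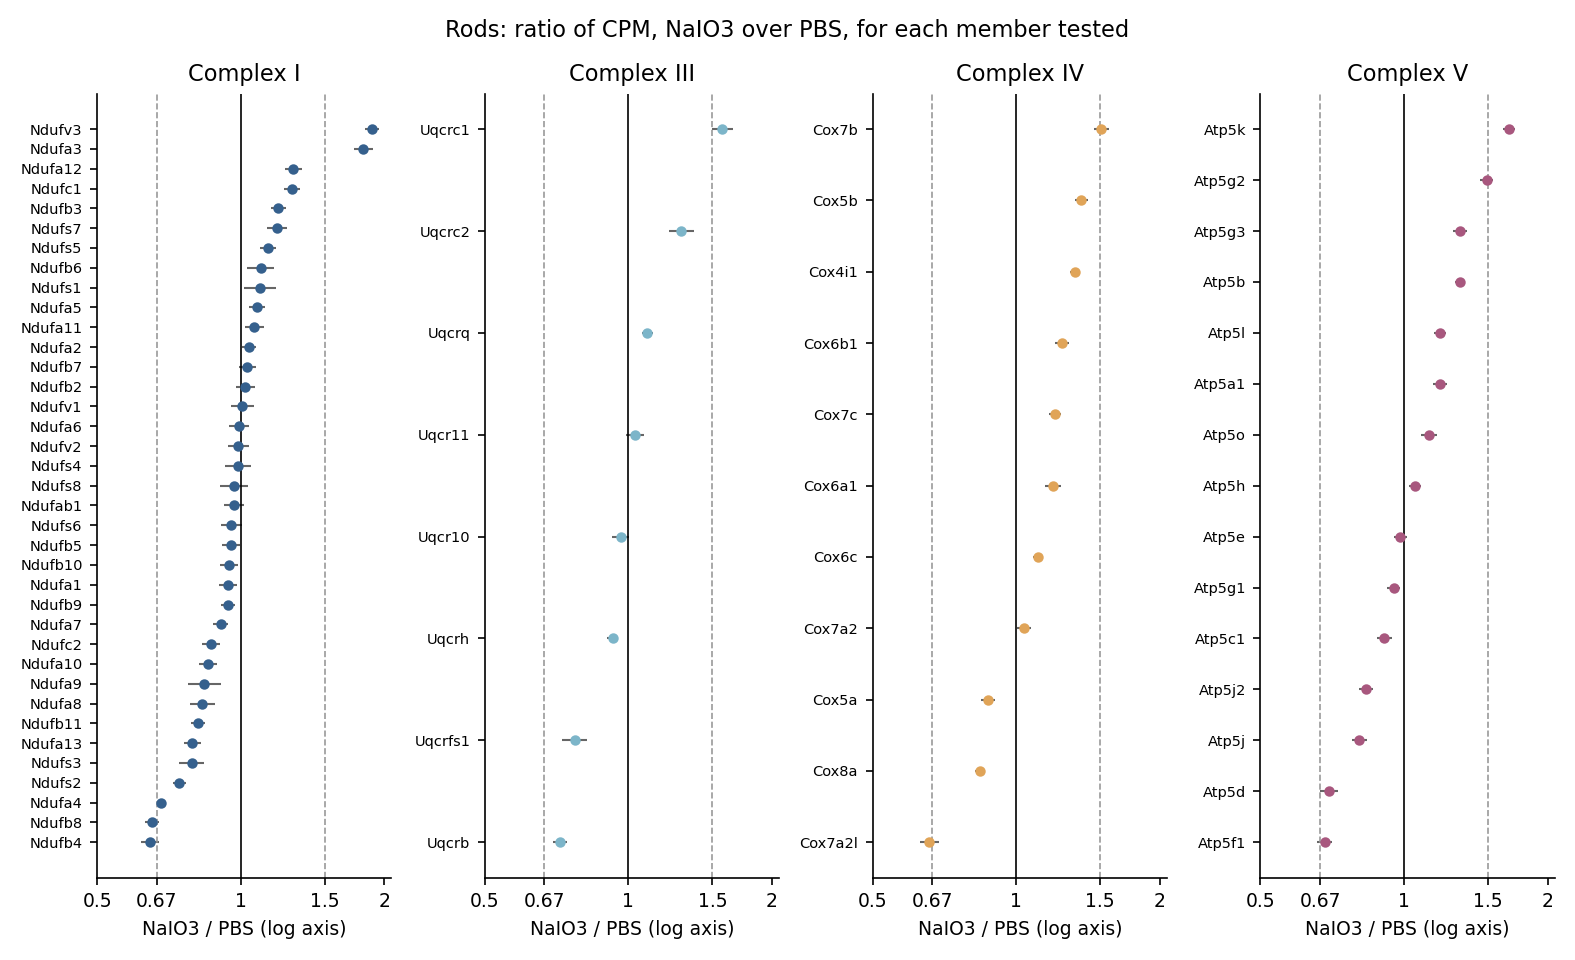
Ratio of CPM in NaIO3 rods to PBS rods (x axis, log scale) for the 71 members tested, one panel per complex; bars are exact 95% counting intervals and dashed lines mark 1.5 times in either direction. Ndufv3 (1.89) and Ndufb4 (0.65) are the ends of complex I; TMM scaling would multiply every point by 0.787.

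Among complex I members of rods, 37 of 38 were tested, 2 were higher, 2 lower and 33 between. Ndufv3, a small accessory subunit of the NADH-oxidising arm, had the highest ratio: 284 CPM in PBS and 536 CPM in NaIO3 (1.89, 1.82 to 1.95). Ndufa3, an accessory subunit, was next, with 166 and 300.4 CPM (1.81, 1.73 to 1.90); its exons overlap those of Tfpt on the other strand, and Tfpt itself gave 18.6 and 28.1 CPM. With TMM scaling both stayed above 1, at 1.48 and 1.42. The lowest ratios were those of Ndufb4 (325 to 210.1 CPM, 0.65, 0.62 to 0.67) and Ndufb8 (487 to 317 CPM, 0.65, 0.63 to 0.68), accessory subunits of the distal membrane arm. Ndufb8 exons overlap those of Gm20538 on the same strand. Of the 81 members, 6 had exons overlapping another gene on the same strand and 27 on the opposite strand. The latter include Cox4i1 (Emc8) and Atp5f1 (Gm42890 and Wdr77), and any effect of the overlaps on the counts was not tested. Ndufa3 and Ndufb8 were named after their values were seen. The core subunits Ndufv1, which binds NADH, and Ndufs1, which holds iron-sulfur clusters, had ratios near 1 in CPM: Ndufv1 had 152 and 153 CPM (1.01, 0.95 to 1.07, and 0.79 with TMM scaling), and Ndufs1 had 76.3 and 83.7 CPM (1.10, 1.02 to 1.19, and 0.86 with TMM scaling).

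Ndufa4 gave the most UMIs of any complex I member in PBS rods. Its level was 2176 CPM in the PBS library and 1481 CPM in the NaIO3 library, a ratio of 0.68 (0.67 to 0.69), just short of 1.5 times lower. Its part of all member UMIs was 8.08% in PBS rods and 5.41% in NaIO3 rods. The gene lies at chr6:11900292-11907497 (GRCm38, minus strand), with no other annotated gene over its exons.

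In complex III of rods, Uqcrc1, a core protein, was the only member past 1.5 times: 150.1 CPM in PBS and 236 CPM in NaIO3 (1.57, 1.49 to 1.66, and 1.24 with TMM scaling). Uqcrb, a small subunit near the ubiquinone site, had the lowest ratio, with 554 and 398 CPM (0.72, 0.70 to 0.74). Uqcrfs1, the Rieske iron-sulfur protein that hands electrons to cytochrome c1, had 148 and 114 CPM (0.77, 0.73 to 0.82). Uqcrh, the hinge protein and the member of complex III with the most UMIs, had 715 and 663 CPM (0.93, 0.90 to 0.95).

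In complex IV of rods, 11 of 18 members were tested; the rest are tissue isoforms that rods hardly express. Cox7b was highest, with 299.7 CPM in the PBS library and 452 CPM in the NaIO3 library (1.51, 1.45 to 1.56, and 1.19 with TMM scaling), and Cox7a2l lowest, at 304 and 199.9 CPM (0.66, 0.63 to 0.69). Cox4i1, the regulatory subunit that can bind ATP, had 749 and 995 CPM (1.33, 1.30 to 1.36, and 1.05 with TMM scaling). Cox6c, the member with the most UMIs, had 1052 and 1168 CPM (1.11, 1.09 to 1.13), which TMM scaling turns to 0.87. Cox8a had 875 and 734 CPM (0.84, 0.82 to 0.86).

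In complex V of rods, Atp5k, subunit e of the membrane part where ATP synthases pair, was highest: 413 CPM in PBS and 685 CPM in NaIO3 (1.66, 1.61 to 1.71, and 1.31 with TMM scaling). Atp5f1, subunit b of the peripheral stalk, was lowest, at 435 and 297 CPM (0.68, 0.66 to 0.71). Atp5b, the catalytic beta subunit and the member with the most UMIs, had 868 and 1136 CPM (1.31, 1.28 to 1.34, and 1.03 with TMM scaling). The 3 genes for the same c-ring protein had different ratios: Atp5g1 had a ratio of 0.95 (0.92 to 0.98), Atp5g2 of 1.49 (1.44 to 1.54), just short of the limit, and Atp5g3 of 1.31 (1.27 to 1.36); with TMM scaling these were 0.75, 1.17 and 1.03.

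The promoters of 5 members are printed because Ndufa4, Uqcrc1 and Atp5k are named above for their ratios, and Cox6b1 and Cox6b2 are a widely expressed and a restricted isoform of 1 subunit. Each is the RefSeq window on GRCm38.p6 from 250 bases before to 50 bases after the annotated start, 5′ to 3′ in the direction of the gene. Capitals mark an ETS motif (CCGGAAG, or CTTCCGG on the other strand) or an NRF1 motif (GCATGCGC, or GCGCATGC on the other strand).
Ndufa4: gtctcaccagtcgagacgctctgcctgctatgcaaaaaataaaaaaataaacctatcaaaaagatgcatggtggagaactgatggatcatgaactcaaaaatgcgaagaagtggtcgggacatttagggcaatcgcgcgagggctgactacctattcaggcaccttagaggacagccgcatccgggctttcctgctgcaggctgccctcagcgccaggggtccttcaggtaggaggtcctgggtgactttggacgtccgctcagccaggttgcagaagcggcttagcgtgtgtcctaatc
Uqcrc1: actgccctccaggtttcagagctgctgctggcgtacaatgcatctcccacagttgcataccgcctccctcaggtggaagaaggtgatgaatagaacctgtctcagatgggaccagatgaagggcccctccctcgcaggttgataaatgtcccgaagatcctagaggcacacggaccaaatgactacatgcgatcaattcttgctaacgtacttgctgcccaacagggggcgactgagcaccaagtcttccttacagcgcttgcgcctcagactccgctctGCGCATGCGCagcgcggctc
Atp5k: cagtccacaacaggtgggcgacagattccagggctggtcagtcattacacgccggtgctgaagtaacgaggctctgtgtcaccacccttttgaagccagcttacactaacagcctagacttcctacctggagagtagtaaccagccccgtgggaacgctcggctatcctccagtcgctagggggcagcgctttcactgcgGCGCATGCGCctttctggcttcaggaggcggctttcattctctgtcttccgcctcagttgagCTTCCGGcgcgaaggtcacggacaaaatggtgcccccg
Cox6b1: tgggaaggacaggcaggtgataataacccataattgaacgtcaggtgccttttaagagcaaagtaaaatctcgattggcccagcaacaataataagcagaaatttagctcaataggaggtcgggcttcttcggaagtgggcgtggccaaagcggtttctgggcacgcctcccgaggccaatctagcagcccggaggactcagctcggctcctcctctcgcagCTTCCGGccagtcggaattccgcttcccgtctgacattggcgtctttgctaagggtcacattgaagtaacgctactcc
Cox6b2: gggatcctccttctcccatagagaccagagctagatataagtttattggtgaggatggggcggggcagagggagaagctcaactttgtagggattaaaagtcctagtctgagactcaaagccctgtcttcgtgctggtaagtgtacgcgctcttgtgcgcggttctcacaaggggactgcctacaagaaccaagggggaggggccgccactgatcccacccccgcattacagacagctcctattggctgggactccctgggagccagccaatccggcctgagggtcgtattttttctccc
The windows are chr6:11907401-11907700 on the minus strand for Ndufa4, chr9:108936398-108936697 on the plus strand for Uqcrc1, chr5:108434350-108434649 on the minus strand for Atp5k, chr7:30626065-30626364 on the minus strand for Cox6b1 and chr7:4753045-4753344 on the minus strand for Cox6b2.

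ETS factors (such as the GABP proteins), NRF1 and YY1 are known activators of many nuclear OXPHOS genes. Uqcrc1 holds NRF1 letters on both strands, overlapping each other, 30 bases after the start; Atp5k holds them 50 bases before the start, with an ETS motif 12 bases after it. Cox6b1 holds an ETS motif 28 bases before the start, and the windows of Ndufa4 and Cox6b2 held none of the motifs searched. Of 80 member symbols, 64 matched a window, and 14 of them (21.9%) held the ETS motif on either strand, against 9.93% of all 27025 genes of the table. The NRF1 motif was in 9 (14.1%, against 3.05%) and the YY1 motif AAGATGGCG in 7 (10.9%, against 1.64%); a gene with several windows counted once. At least 1 of these was in 39.1% of the matched members and 13.6% of all genes, and the windows of members had a median GC content of 57% against 52.7%. A match is a run of letters in this window and no evidence of binding.

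Rod transcripts encoded by mitochondrial DNA had far lower ratios than those of their nuclear partners. In rods the 13 mitochondrial transcripts summed to 78502 CPM in PBS and 25554 CPM in NaIO3, a ratio of 0.326 (0.324 to 0.327), and 12 of the 13 were at least 1.5 times lower. By complex the mitochondrial ratios were 0.343 for complex I, 0.293 for mt-Cytb of complex III, 0.367 for complex IV and 0.251 for complex V. The exception was mt-Atp8, at 245 and 248 CPM. Without the limit of 15% mitochondrial UMIs per cell, which left out 663 PBS and 276 NaIO3 barcodes, the rod sum had a ratio of 0.309 (0.308 to 0.310). Leaving mitochondrial UMIs out of the total, the nuclear sum in rods had a ratio of 0.960 (0.956 to 0.964), on the other side of 1.

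Within the PBS library, rods with more mitochondrial RNA also held more nuclear OXPHOS RNA, up to the limit of 15%. Nuclear members summed to 15061 CPM in the 374 PBS rods with under 1% mitochondrial UMIs, 15662 CPM in 669 rods at 1 to 2.5%, 20354 CPM in 769 rods at 2.5 to 5%, 28709 CPM in 2059 rods at 5 to 10% and 31035 CPM in 1240 rods at 10 to 15%. In NaIO3 rods the same bins gave 24107, 27473.5, 29249, 29388 and 23897 CPM, over 1344, 1780, 1431, 597 and 106 rods. Above 15%, outside the filter, 423 PBS rods gave 23510.2 CPM, below the bins from 5 to 15%, and 59 NaIO3 rods gave 19729 CPM. The NaIO3 to PBS ratio was therefore 1.60 (1.57 to 1.63) below 1%, 1.75 (1.73 to 1.78) at 1 to 2.5% and 1.44 (1.42 to 1.45) at 2.5 to 5%. It was 1.02 (1.01 to 1.03) at 5 to 10% and 0.77 (0.75 to 0.79) at 10 to 15%. Malat1, a transcript kept in the nucleus, ran the opposite way in PBS rods, from 9.13% of UMIs in the lowest bin to 2.74% at 10 to 15%, and in NaIO3 rods from 5.90% to 3.76%; its part in the result was not tested. The median rod held 1687.5 UMIs in the lowest PBS bin and 2894.5 at 10 to 15%, and 2146.5 and 1615.5 in the same NaIO3 bins.

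**Figure D3:**
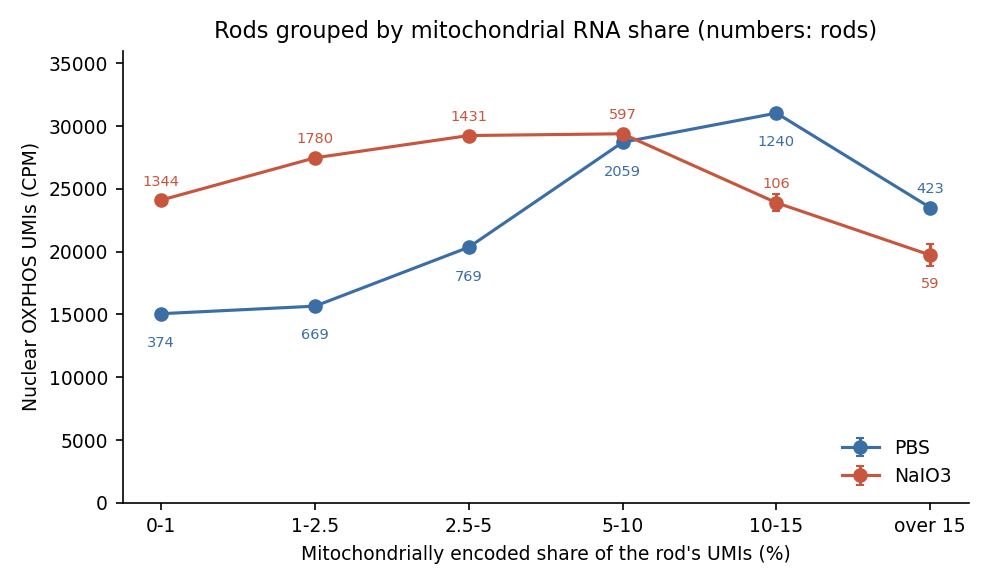
Nuclear OXPHOS level (y axis, CPM) in rods grouped by the share of their UMIs from mitochondrial genes (x axis, %), with exact 95% intervals; the printed numbers count rods. PBS rods run from 15061 to 31035 CPM up to 15%, whereas NaIO3 rods stay between 23897 and 29388 CPM over the same bins.

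Rods were also divided by Edn2 and Fgf2, transcripts known from stressed photoreceptors, and the OXPHOS levels of the sets differed little beside the bins above. The 3482 NaIO3 rods with a UMI of either gave 27408 CPM and the 1776 without gave 27100.4 CPM. In PBS, 322 rods with such a UMI gave 28284 CPM and 4789 without gave 26719 CPM, and the rods with a UMI were deeper in both libraries (medians 3858.5 against 2308 in PBS and 2791 against 1637 UMIs in NaIO3).

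Other mitochondrial and metabolic genes of rods were taken from lists, and no list had a summed ratio as low as the mitochondrial transcripts. Complex II (4 genes) had a summed ratio of 0.987 (0.955 to 1.02), with none of 4 past 1.5 times. The TCA cycle (16 genes, 14 tested) had 1.10 (1.08 to 1.12, and 0.862 with TMM scaling), with 2 higher and 1 lower; Idh3g, a subunit of isocitrate dehydrogenase, went from 52.3 to 87.6 CPM and Dld, a shared subunit of dehydrogenase complexes, from 119.7 to 74.1 CPM. Of 30 tested assembly factors 5 were higher and 1 lower; Ndufaf5, Ndufaf6 and Ndufaf7, which act on complex I assembly, had ratios of 2.91, 2.27 and 2.495, Pet100 and Atpaf1 of 1.72 and 1.78, and Uqcc3 was at 0.58. Among carriers, the phosphate carrier Slc25a3 had 1.59 and the outer membrane channel Vdac2 0.61. Of 9 tested regulators, Ppargc1b (1.95) and Tfb2m (1.53) were higher and Mterf1a (0.48) lower. Glycolysis had a summed ratio of 0.601 (0.598 to 0.605), with 9 of 16 tested genes lower and 1, Hk1 (1.86), higher. These counts stand against the same 28.8% and 8.47% of all genes. With TMM scaling the summed ratios of the assembly factors, carriers and regulators turn from 1.03, 1.08 and 1.28 to 0.811, 0.851 and 1.01.

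In cones the summed level was lower in NaIO3 under the main setting and all 13 alternatives. It was 30184 CPM in PBS and 28178 CPM in NaIO3 (0.934, 0.926 to 0.941), and 0.908 (0.893 to 0.924) without the cells rich in rod RNA, which left 131 and 92 cones. Complex I had a ratio of 0.852 (0.841 to 0.864), complex III 0.925 (0.901 to 0.950), complex IV 0.979 (0.962 to 0.995) and complex V 1.03 (1.01 to 1.04), the last of which turns to 0.835 with TMM scaling and 0.980 in the cones poor in rod RNA. Of 71 members tested, 3 were at least 1.5 times higher and 4 lower, against 25.8% and 6.89% of 7197 genes. The 3 were Ndufa3 (155 to 267 CPM, 1.73), Ndufv3 (350.2 to 555 CPM, 1.58) and Uqcrc1 (168 to 259 CPM, 1.54). The 4 were Ndufa4 (2324 to 1352 CPM, 0.58), Cox7a2l (327 to 197 CPM, 0.60), Ndufb8 (529 to 330.0 CPM, 0.62) and Ndufb4 (355 to 226 CPM, 0.64). In the cones poor in rod RNA, Ndufa4 stood at 1823 and 1448 CPM (0.79, 0.74 to 0.86), Ndufa3 at 1.58, Uqcrc1 at 1.32, Ndufv3 at 1.21, Cox7a2l at 0.61, Ndufb8 at 0.63 and Ndufb4 at 0.70, so Uqcrc1, Ndufv3, Ndufa4 and Ndufb4 were no longer past 1.5 times there.

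In CPM, bipolar cells had the largest difference of the 3 neuron classes, with no member higher by 1.5 times; with TMM scaling cones differed more. The sum went from 34229.8 to 27186 CPM (0.794, 0.779 to 0.809), and TMM scaling left it at 0.796, against 0.760 in cones. All 4 complexes were lower: complex I at 0.746 (0.724 to 0.768), complex III at 0.796 (0.748 to 0.848), complex IV at 0.834 (0.803 to 0.867) and complex V at 0.833 (0.802 to 0.865). Of 71 members tested, 18 were at least 1.5 times lower (25.4%) and 13 of these were complex I members, against 18% of 7834 genes lower and 25.7% higher. Ndufa4 had 2048 and 1387 CPM (0.68, 0.63 to 0.73), Uqcrfs1 209.4 and 107 CPM (0.51, 0.40 to 0.66), Atp5f1 559 and 295 CPM (0.53, 0.45 to 0.62) and Cox8a 1876 and 1226 CPM (0.65, 0.60 to 0.71). Ndufa3 was the member with the highest ratio, 163 and 237 CPM (1.45, 1.11 to 1.93). The PBS side rests on 45 cells. Among cells with at most 5% mitochondrial UMIs the summed ratio was 1.10 (0.947 to 1.29), but only 2 PBS cells and 271 NaIO3 cells met that limit.

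In Müller glia, the support cells of the retina, the direction of the sum depended on the cells kept. It was 20962 CPM in PBS and 22809 CPM in NaIO3 (1.09, 1.06 to 1.11), but 19367 and 18194 CPM (0.939, 0.908 to 0.972) in the 33 and 190 cells poor in rod RNA. Complex I had a ratio of 0.979 (0.947 to 1.01, and 1.03 with TMM scaling), complex III 1.11 (1.04 to 1.19), complex IV 1.17 (1.12 to 1.23) and complex V 1.18 (1.13 to 1.23), and in the cells poor in rod RNA these were 0.872, 1.05, 0.955 and 0.985. The median Müller cell held 3533 UMIs in PBS and 19337.5 in NaIO3. Of 75 members tested, 8 were at least 1.5 times higher and 6 lower (10.7% and 8.0%), against 19.8% and 19.1% of 8108 genes. Ndufv3 had 158 and 358 CPM (2.26, 1.77 to 2.94), Ndufa3 160.5 and 316 CPM (1.97, 1.54 to 2.55) and Cox4i1 598 and 966 CPM (1.62, 1.42 to 1.84). Without the cells rich in rod RNA these ratios were 1.88 (1.20 to 3.11), 1.57 (1.13 to 2.25) and 1.20 (0.994 to 1.46).

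In microglia, complex I was the only complex lower in CPM, and it was higher with TMM scaling and in the cells poor in rod RNA. Complex I summed to 8669 CPM in PBS and 6786 CPM in NaIO3 (0.783, 0.724 to 0.847), whereas complex III had a ratio of 1.17 (0.988 to 1.38), complex IV of 1.32 (1.19 to 1.47) and complex V of 1.23 (1.12 to 1.36). Its ratio turned to 1.17 with TMM scaling and to 1.22 (1.08 to 1.40) in the 12 PBS and 1430 NaIO3 microglia poor in rod RNA, where complexes III, IV and V were at 1.49, 1.84 and 1.68. In all microglia the sum went from 21013 to 22292 CPM (1.06, 1.01 to 1.12). Ribosomal protein transcripts, 106493 and 190487 CPM, took a larger part of the NaIO3 total, and rod markers 33806 and 2379 CPM; neither one's part in the result was tested beyond these values. The PBS class held 73479 UMIs, so 1 UMI is 13.6 CPM there.

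Single members of microglia are therefore described where PBS cells held at least 10 UMIs. Ndufa4 was lowest: 95 UMIs or 1293 CPM in PBS, 4916 UMIs or 349 CPM in NaIO3 (0.27, 0.22 to 0.33), and 521 and 298 CPM (0.57, 0.38 to 0.92) without the cells rich in rod RNA. Of these members, Ndufa2 was the highest of complex I (245 to 409 CPM, 1.67, 1.06 to 2.82). Uqcrq and Uqcrb were the ends of complex III (259 to 519 CPM, 2.01, 1.28 to 3.34, and 422 to 270.1 CPM, 0.64, 0.45 to 0.94). In complex IV, Cox6b1 had 259 and 578 CPM (2.24, 1.43 to 3.71) and Cox7a2l 422 and 260.5 CPM (0.62, 0.43 to 0.91). In complex V, Atp5d of the F1 head had 136 and 257 CPM (1.89, 1.02 to 3.94) and Atp5h 558 and 477 CPM (0.85, 0.63 to 1.19). With TMM scaling Atp5h turns to 1.28, and Uqcrb and Cox7a2l stand at 0.96 and 0.92. In the cells poor in rod RNA these members had 4 to 19 PBS UMIs. The ratios there were 2.16 (1.10 to 5.01) for Ndufa2, 5.39 (2.10 to 19.8) for Uqcrq and 0.75 (0.45 to 1.34) for Uqcrb. Cox6b1 had 2.73 (1.44 to 5.97), Cox7a2l 0.92 (0.52 to 1.78), Atp5d 2.16 (0.925 to 6.66) and Atp5h 1.04 (0.66 to 1.73). Of 72 members tested, 15 were at least 1.5 times higher and 11 lower (20.8% and 15.3%), against 24.7% and 40.4% of 7841 genes. Counting intervals lay above 1 for 13 members and below 1 for 9, again without a count over all genes. Several calls rest on a handful of PBS UMIs, such as that of Uqcrc1, which had 3.

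The share of complex I among all member UMIs does not depend on the scaling of the libraries, and it was lower in NaIO3 in all 5 classes. It went from 42.6% (42.5 to 42.8) to 39.1% (38.9 to 39.2) in rods, from 40.6% to 37.1% in cones, from 40.7% to 38.2% in bipolar cells, from 41.5% to 37.4% in Müller glia and from 41.3% (38.8 to 43.8) to 30.4% (30.3 to 30.6) in microglia. These comparisons share the 2 libraries and rod marker RNA in every class, so they are not independent of each other. In rods, most of the difference was Ndufa4: counted with complex IV, the complex I share went from 34.6% (34.4 to 34.7) to 33.6% (33.5 to 33.8), and the summed ratios of complexes I and IV became 0.988 (0.981 to 0.995) and 0.995 (0.988 to 1.003). In cones the complex I share then went from 32.9% to 32.3%, in bipolar cells from 34.7% to 33.1%, in Müller glia from 36.2% to 33.2% and in microglia from 35.1% (32.7 to 37.5) to 28.9% (28.7 to 29.0). Without the cells rich in rod RNA and with Ndufa4 counted by name, it was 38.4% and 35.7% in cones, 39.4% and 36.6% in Müller glia and 37.5% (33.6 to 41.5) and 30.0% (29.9 to 30.2) in microglia.

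**Figure D4:**
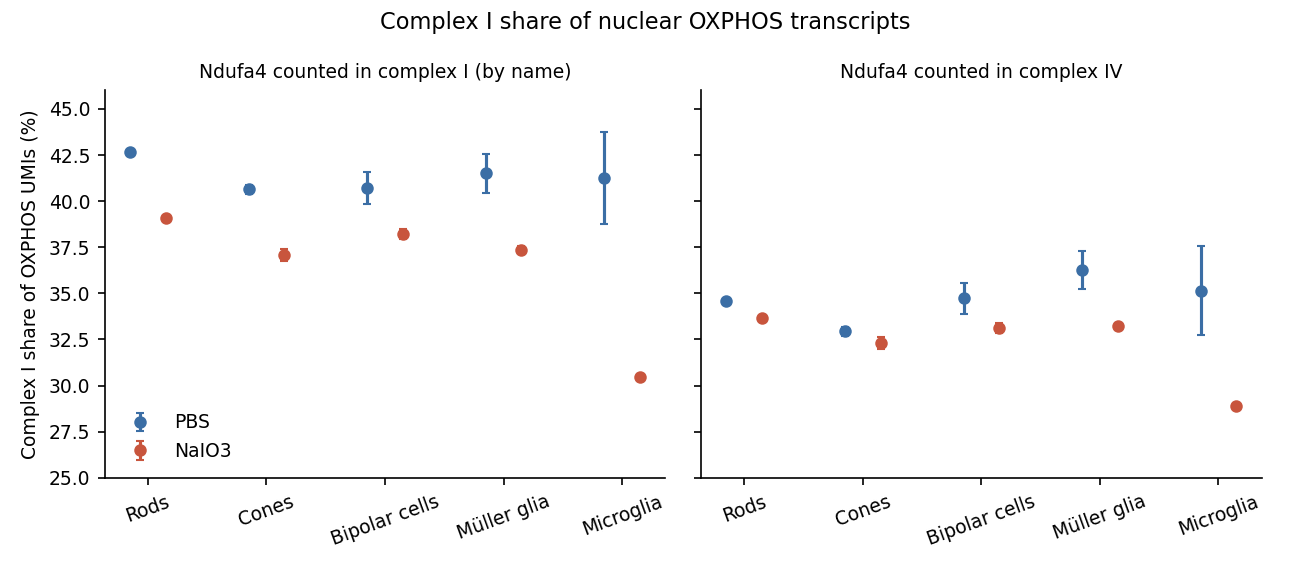
Complex I share of all member UMIs (y axis, %, starting at 25) in PBS and NaIO3 for 5 classes, with exact 95% binomial intervals; Ndufa4 is counted in complex I on the left and in complex IV on the right. In rods the gap narrows from 42.6% against 39.1% to 34.6% against 33.6%; in microglia it goes from 41.3% against 30.4% to 35.1% against 28.9%.

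Of the 5 classes, Müller glia had the highest levels of the complex IV isoforms Cox4i2 and Cox6b2. Cox4i2, the isoform of Cox4i1 known from lung and hypoxic tissue, had 384 CPM in PBS Müller glia (interval 327 to 449, 158 UMIs) and 193 CPM in NaIO3 Müller glia (185 to 202, 2145 UMIs), against 4.13 and 2.40 CPM in rods, 4.43 and 3.52 in cones, 2.87 and 3.09 in bipolar cells, and 0 and 2.70 in microglia. The ratio in Müller glia was 0.50 (0.43 to 0.60), and 0.42 (0.35 to 0.51) in the cells poor in rod RNA, where the levels were 765 and 325 CPM. Cox4i1 in all Müller glia was not lower (598 and 966 CPM). With each cell thinned to 1000 UMIs, 17 of 59 PBS Müller glia (28.8%, 17.8% to 42.1%) and 85 of 493 NaIO3 Müller glia (17.2%, 14.0% to 20.9%) held a Cox4i2 UMI, against 0.497% and 0.261% of rods. Pericytes are another known source of Cox4i2: 3 NaIO3 pericytes held 4 Cox4i2 UMIs, and in Müller glia the 10 pericyte markers summed to 92.4 CPM in PBS (7 of 10 at 0) and 60.1 CPM in NaIO3 (3 of 10 at 0), against at most 16.2 CPM in the other 4 classes; their part in the result was not tested. Unthinned, 50.7% and 76.7% of Müller glia held one, at medians of 3533 and 19337.5 UMIs per cell. Cox4i2 lies at chr2:152754173-152765037 (GRCm38, plus strand), and no other annotated gene overlaps its exons.

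Cox6b2, known as the testis isoform of Cox6b1, had 107 CPM in PBS Müller glia (44 UMIs) and 52.5 CPM in NaIO3 Müller glia (583 UMIs), a ratio of 0.49 (0.36 to 0.68), and 0.41 (0.29 to 0.60) in the cells poor in rod RNA. Rods had 5.31 and 4.07 CPM, and 17 PBS amacrine cells had 99.3 CPM (56.8 to 161, 16 UMIs). Cones had 5.64 and 17.3 CPM (3.07, 1.91 to 5.03). Cox6b1, the common isoform, had 338 and 439 CPM in Müller glia and 383 and 477 CPM in rods.

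Cox7a1, the isoform of heart and skeletal muscle, was low in all classes, and its highest level in NaIO3 was that of Müller glia, 32.2 CPM (28.9 to 35.7, 357 UMIs in 201 of 528 cells); PBS Müller glia had 2 UMIs, or 4.86 CPM (0.59 to 17.6). The ratio of 6.61 (1.82 to 54.8) therefore has a wide interval. Rods had 15.8 and 17.0 CPM. Cox7a2, the common isoform, had 297 and 393 CPM in Müller glia and 462 and 480.0 CPM in rods.

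Cox6a2, the muscle isoform of Cox6a1, was listed in 1607 NaIO3 microglia with 153 UMIs (10.9 CPM) in 69 cells, of which the 3 highest held 37.3%; the 69 cells had a median of 25464 UMIs, against 2473 in the class. PBS microglia had 0 UMIs, which allows up to 40.8 CPM at 3 counts, so the libraries cannot be compared. Its exons overlap Itgad on the other strand, and Itgad had 3 UMIs in the NaIO3 microglia. The remaining isoforms were near 0 in the 5 classes and were seen in a few cells of other classes: Ndufa4l2, which replaces Ndufa4 in hypoxic cells and pericytes, had at most 1.62 CPM in the 5 classes and 8.95 CPM (3.28 to 19.5, 6 UMIs) in endothelial cells and had 5 UMIs in 2 of 3 NaIO3 pericytes, Cox8b had at most 3 UMIs in any of the 5 classes and 7 UMIs in 2 of 3 PBS pigment epithelium cells, and Cox7b2 and Cox8c had no UMI in rods or microglia.

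**Figure D5:**
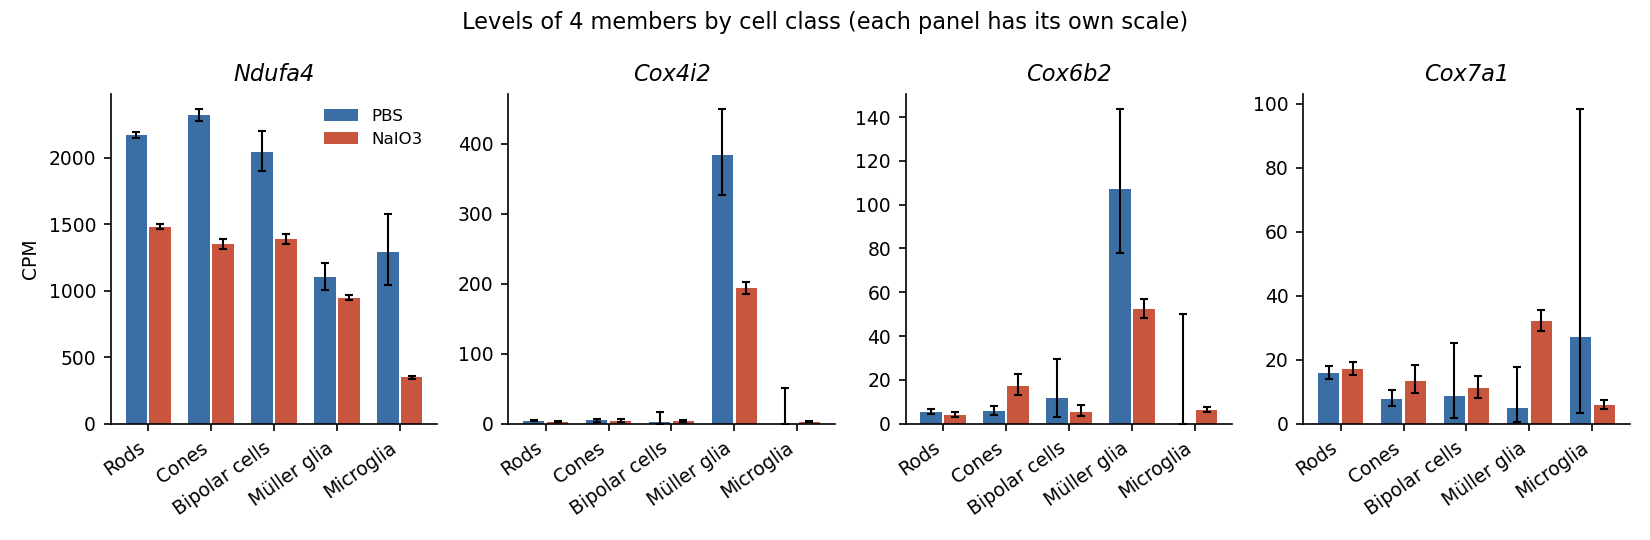
Levels of Ndufa4, Cox4i2, Cox6b2 and Cox7a1 in 5 classes (y axis, CPM, with a scale of its own in each panel; bars from 0, exact 95% Poisson intervals). Ndufa4 is lower in NaIO3 in each class, from 2176 to 1481 CPM in rods and from 1293 to 349 CPM in microglia, and Cox4i2 and Cox6b2 stand highest in Müller glia, at 384 and 107 CPM in PBS. In the Müller glia poor in rod RNA, not drawn, Ndufa4 had 591 and 527 CPM (0.89, 0.73 to 1.09), within counting error.

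Outside rods, the mitochondrial transcripts were lower in NaIO3 as well, and the interval of complex II in CPM included 1 in each class. The 13 mitochondrial transcripts had summed ratios of 0.440 (0.437 to 0.443) in cones, 0.476 (0.471 to 0.481) in bipolar cells, 0.532 (0.526 to 0.538) in Müller glia and 0.383 (0.372 to 0.394) in microglia, and 8, 10, 10 and 11 of the 13 were at least 1.5 times lower. Complex II had 0.990 (0.924 to 1.06), 0.972 (0.830 to 1.14), 0.984 (0.845 to 1.15) and 0.855 (0.622 to 1.21) in the same order, and with TMM scaling cones were at 0.806 (0.752 to 0.863), an interval below 1, while Müller glia and microglia turn to 1.04 and 1.28. Glycolysis had 0.624, 0.651, 0.745 and 0.563, with 7 of 17, 10 of 17, 7 of 17 and 11 of 16 tested genes lower, against 6.89%, 18%, 19.1% and 40.4% of all genes. The assembly factors had 1.01, 0.842, 0.861 and 0.763, with 6 higher and 2 lower of 28 tested in cones, 5 and 6 of 31 in bipolar cells, 5 and 9 of 32 in Müller glia, and 4 and 16 of 24 in microglia; the shares of all genes higher were 25.8%, 25.7%, 19.8% and 24.7%, and the shares lower those given for glycolysis. The TCA cycle had 1.10, 0.984, 0.972 and 1.13, and the carriers 1.05, 0.760, 0.945 and 1.19. The regulators had 1.23, 1.31, 0.920 and 0.879. With TMM scaling several of these turn: in cones the assembly factors to 0.821, the TCA cycle to 0.899 and the carriers to 0.859, in Müller glia the TCA cycle to 1.03, and in microglia the assembly factors to 1.14 and the regulators to 1.32.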

How the data were processed

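The deposited matrices hold UMI counts per gene and cell barcode that the authors made with Cell Ranger 3.0.2, per the file headers; the build mm10 comes from the submitters' processing notes, and the sources used here do not say whether counting used strand. The members and lists were chosen with earlier results of these data known. Cells needed at least 500 UMIs, 300 genes and at most 15% mitochondrial UMIs. A class needed 3 of its 10 markers and more than 2 times as many as of any other list but the rod list; rods needed 5 and under 3 of each other list; doublets were not called, and cells that fit no class stayed ungated. UMIs were summed per library and class and given per 1000000 UMIs (CPM). Ratios carry exact conditional binomial 95% intervals, levels Poisson and shares binomial (Clopper-Pearson) ones, which cover counting error only. Genes with 20 CPM in a library and 20 summed UMIs were compared at 1.5 times; a count of 0 was set to 3 counts. With 1 library per group no test across samples was possible. Genes named are, for rods and microglia, the highest and lowest ratio per complex with at least 10 PBS UMIs, the most counted member per complex in PBS rods, isoform groups, core subunits and listed genes; Ndufa3, Ndufb8 and others past 1.5 times were named after their values were seen. Positions are from GENCODE M21 (GRCm38) and promoters from RefSeq (GRCm38.p6). The ratio code was tested on simulated data. Alternatives covered scaling, denominator, cell filters, depth, gates and rod RNA. Tools were Python 3.11.15, numpy 2.4.6, scipy 1.17.1, pandas 2.3.3, matplotlib 3.10.9, and edgeR 4.0.16 in R 4.3.3 for TMM factors only. The values of 1 listed gene are not reported here.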

Additional observations from a re-analysis of the deposited data

Results flagged for a closer look

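Summed ratios of NaIO3 to PBS pointed in opposite directions in different cell classes for 3 complexes, with counting intervals on different sides of 1; the difference between classes was not tested, since each class has 1 library per group. For complex III the ratio was 0.975 in rods, 0.925 in cones and 0.796 in bipolar cells, but 1.11 in Müller glia. For complex IV it was 1.11 in rods, 1.17 in Müller glia and 1.32 in microglia, but 0.979 in cones and 0.834 in bipolar cells. For complex V it was 1.09 in rods, 1.03 in cones, 1.18 in Müller glia and 1.23 in microglia, but 0.833 in bipolar cells. With TMM scaling, rods and cones were below 1 for all 3 complexes. Without the cells rich in rod RNA, Müller glia were at 1.05 (0.945 to 1.18) for complex III, 0.955 (0.893 to 1.02) for complex IV and 0.985 (0.919 to 1.06) for complex V, and cones at 0.980 for complex V. With Ndufa4 counted in complex IV, rods were at 0.995 for that complex.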

How the results depend on the processing

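No paired analysis was possible because each group is 1 library. The planned comparison of amacrine cells gave no value with 17 and 2 cells. The cause was not tested for any difference below. The summed ratio of NaIO3 to PBS had its main value at 1.02 in rods, 0.934 in cones, 0.794 in bipolar cells, 1.09 in Müller glia and 1.06 in microglia. TMM scaling gave 0.799 in rods, 0.760 in cones, 1.15 in Müller glia and 1.59 in microglia, and median-of-ratios scaling 0.813, 0.768, 1.14 and 1.55. Without mitochondrial UMIs in the total it was 0.960 in rods, 0.881 in cones, 0.749 in bipolar cells and 1.05 in Müller glia. The mean of per-cell CPM gave 1.17 in rods, 0.846 in bipolar cells, 1.01 in Müller glia and 1.23 in microglia, and thinning to 1000 UMIs 1.13 in rods, 0.909 in cones, 0.822 in bipolar cells and 1.03 in Müller glia. At most 5% mitochondrial UMIs gave 1.53 in rods, 0.870 in cones, 1.10 in bipolar cells, 1.26 in Müller glia and 1.77 in microglia. In this order 1813, 15, 2, 20 and 7 PBS cells met that limit. With no such limit the ratio was 1.02 in rods, 0.945 in cones and 0.776 in bipolar cells. Rods with at least 1500 UMIs and 800 genes gave 0.983. Without the 5% deepest cells rods gave 1.07 and cones 0.926. A gate of 2 markers gave 0.843 in bipolar cells and 1.003 in Müller glia. Chosen after seeing the data, leaving out cells rich in rod RNA gave 0.908 in cones, 0.939 in Müller glia and 1.53 in microglia. Subtracting the rod profile gave 0.678 in cones, 0.776 in bipolar cells, 1.12 in Müller glia and 1.39 in microglia. This step removed unlike parts of the libraries: 80.2% of PBS and 58.6% of NaIO3 UMIs in cones, and 9.39% and 24.1% in bipolar cells. In Müller glia it removed 48.9% and 55.7%, and in microglia 46.6% and 5.76%. In rods 5 members were higher and 3 lower; with TMM scaling these were 0 and 17, with median-of-ratios scaling 1 and 15, without mitochondrial UMIs 3 and 6, per cell 9 and 0, and at 2 times 0 and 0, while with no minimum level 5 were lower. In microglia 15 were higher and 11 lower. With TMM scaling these were 42 and 5, with median-of-ratios scaling 41 and 5, and at 2 times 6 and 5, while per cell 27 were higher. For these alternatives no share of all genes is given for rods or microglia, so the counts cannot set members apart from other genes. The complex I share was lower in NaIO3 under all 9 alternatives in rods and all 11 in each other class, with differences of -4.83 to -0.92 percentage points in rods. Depth limits the PBS microglia (19 cells) and bipolar cells (45 cells) most.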
